A study of Homo sapiens with 4 samples.

Results

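AP-1 and CREB family transcription factors are basic leucine zipper proteins that bind DNA as dimers, and 10 of their genes are described here among 25343 gene symbols measured. They are FOS, FOSB, FOSL1, FOSL2, JUN, JUNB, JUND, MAFF, ATF2 and CREB5. The list was drawn up by symbol, and FOS, JUN, MAFF, ATF2 and CREB5 were put forward as higher after SCD1 knockdown in both cell lines. That description held for 4 of those 5 genes, because ATF2 was lower in the Huh7 knockdown library. The members were thus chosen partly by their TPM in knockdown and control libraries, so their differences in that contrast are given as a description, with no test.

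The data were 4 RNA-seq libraries from 2 human hepatocellular carcinoma lines, Huh7 and PLC/PRF/5. In each line, 1 library came from cells transduced by lentivirus with an shRNA against SCD1 (shSCD1#13) and 1 from cells given a non-target control shRNA (NTC). All 4 cultures were selected with puromycin and grown in DMEM-HG with serum and antibiotics. SCD1 (gene symbol SCD) encodes an enzyme that puts a double bond into saturated fatty acids. A single hairpin was used, whether each culture was a pool or a clone is not given, and nothing states that a group had more than 1 culture. The question was which genes differ in expression between knockdown and control. SCD stood at 137 TPM in the knockdown library and 1755 TPM in the control library of Huh7, and at 178 TPM in the knockdown and 1111 TPM in the control of PLC/PRF/5. TPM is an estimate of transcript abundance that is corrected for length and sums to the same total in every library, so levels may be compared between genes, but the sequencing depth is unknown.

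Of 10 hepatocyte markers, all were at 1 TPM or more in at least 1 library; their summed level was 28048 TPM in the knockdown and 30886 TPM in the control of Huh7, and 3321 TPM in the knockdown and 4941 TPM in the control of PLC/PRF/5. Their median log2 fold change of knockdown over control was -0.30 in Huh7, with none past 2-fold, and -0.85 in PLC/PRF/5, where AFP, FGB, TF and AHSG, 4 of 9 considered, were at least 2-fold lower against 1.12% of all genes. By the limma test across both lines, 0 of 10 were higher and 5 lower at an unadjusted p under 0.05, beside 12.7% and 5.24% of all genes. The all-gene numbers were 1759 higher and 724 lower as deposited. They became 1071 and 1273 with each library rescaled by its median ratio to the others. After adjustment, 0 of the 10 markers passed, and the part of these markers in the results was not tested. Of 11 markers of fibroblasts, endothelium and leukocytes, 5 were under 1 TPM in every library, and ACTA2 was listed at 0 throughout. Their summed level was 32.2 TPM against 57.9 TPM in Huh7 (knockdown against control) and 15.9 TPM against 31.3 TPM in PLC/PRF/5. Each difference came mostly from 1 gene, COL1A2 in Huh7 (9.63 against 30.9 TPM) and CD68 in PLC/PRF/5 (13.0 against 27.0 TPM). Of the 2 markers considered in both lines, 1 was lower in both and 1 had opposite signs. The part of these markers in the results was not tested. In bulk RNA, fewer cells expressing a gene and less of its RNA per cell cannot be told apart.

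FOS proteins cannot pair with each other and bind DNA with a JUN partner, whereas JUN proteins also form JUN-JUN dimers. FOS, FOSB, JUN and JUNB are immediate early genes, switched on within minutes by growth factors and stress through MAP kinases and SRF. AP-1 dimers bind the TPA response element, and ATF2 and the CREB proteins bind the cAMP response element. In liver, JUN is known for its role in hepatocyte proliferation and in liver tumour development.

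The RefSeq promoter table (build GRCh38.p14) held 11 windows for 8 of the members, each reaching from 250 bases before the annotated start to 50 bases after it. FOSL1 and ATF2 had no window. CREB5 had 3 windows and MAFF 2. They were searched on both strands for TGACGTCA (the cAMP response element), TGACTCA (the TPA response element), TGACATCA (the variant in the JUN promoter) and TGACG (the core shared by many cAMP response elements, which lies within TGACGTCA). The stretches below carry such matches in FOS, FOSB, JUN, JUND, MAFF and CREB5, with the matched bases in capitals and positions counted from the annotated start. FOSL2 and JUNB also had matches, which are not shown. JUN, MAFF and CREB5 are shown by 30 bases around the match.
FOS, chr14:75278678-75278773, plus strand, bases -150 to -55: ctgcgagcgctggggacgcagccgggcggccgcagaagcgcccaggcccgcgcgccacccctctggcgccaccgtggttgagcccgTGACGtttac
FOSB, chr19:45467895-45467994, plus strand, bases -101 to -2: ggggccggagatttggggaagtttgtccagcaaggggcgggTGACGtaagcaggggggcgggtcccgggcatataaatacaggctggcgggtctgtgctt
JUN, chr1:58784096-58784125, minus strand, bases -78 to -49: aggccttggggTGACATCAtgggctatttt
JUND, chr19:18281753-18281852, minus strand, bases -230 to -131: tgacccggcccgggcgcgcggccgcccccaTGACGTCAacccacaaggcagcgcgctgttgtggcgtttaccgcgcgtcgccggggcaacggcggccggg
MAFF, chr22:38201929-38201958, plus strand, bases -65 to -36: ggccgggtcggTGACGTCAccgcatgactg
CREB5 (the most downstream of its windows), chr7:28686077-28686106, plus strand, bases -56 to -27: atgggaaggataTGACTCActcaagctagt

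The core TGACG was found in 7 of the 8 members with a window, all but CREB5. It was in 7 of their 11 windows, against 24.6% of all 35116 windows in the table. In FOS it began 64 bases and in FOSB 60 bases before the start. The full TGACGTCA occurred in JUND and MAFF, against 1.85% of all windows. TGACTCA occurred in CREB5 and FOSL2, against 4.95%, and TGACATCA in JUN, against 2.61%. These are matches of letters and not measured binding.

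The FOS family was higher in the knockdown library of both lines, with different members leading in each. Each log2 fold change compares TPM + 1 of the knockdown library with that of the control library; the added 1 shrinks the difference of low genes, and within a line there is no replicate check. FOS, on chromosome 14, was at 4.16 TPM in the Huh7 knockdown and 3.25 TPM in the control, a log2 fold change of 0.28. In PLC/PRF/5 it was at 18.3 TPM in the knockdown and 3.39 TPM in the control, a log2 fold change of 2.14. The control levels of FOS were thus close in the 2 lines, and the PLC/PRF/5 knockdown library was the high one of the 4. By this difference FOS ranked 15 from the highest of 13057 genes in PLC/PRF/5 and 3693 of 13485 in Huh7.

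FOSB, which encodes a FOS paralogue, had the same order with lower levels. It was at 1.92 TPM in the knockdown and 1.16 TPM in the control of Huh7, and at 8.04 TPM in the knockdown and 1.87 TPM in the control of PLC/PRF/5. Its log2 fold changes were 0.43 in Huh7 and 1.66 in PLC/PRF/5, where it ranked 42. FOSB was the lowest member in every library, and its value in PLC/PRF/5 fell short of 2-fold with a pseudocount of 5 (log2 fold change 0.92).

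FOSL1 (FRA1) and FOSL2 (FRA2) encode FOS-related proteins without the strong activation domains of FOS, and FOSL1 is known as a target of ERK signalling. FOSL1 was at 7.06 TPM in the knockdown and 2.71 TPM in the control of Huh7, and at 29.7 TPM in the knockdown and 11.6 TPM in the control of PLC/PRF/5. With log2 fold changes of 1.12 and 1.28, it differed by about the same factor in both lines from unequal control levels. FOSL2 was at 10.4 TPM in the knockdown and 4.70 TPM in the control of Huh7 (log2 fold change 1.00), and at 14.0 TPM in the knockdown and 10.5 TPM in the control of PLC/PRF/5 (0.38). Its Huh7 difference lay just under 2-fold on this scale, since the ratio of TPM itself was 2.21. With a pseudocount of 5, the Huh7 log2 fold change of FOSL1 became 0.65, short of 2-fold.

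**Figure D1:**
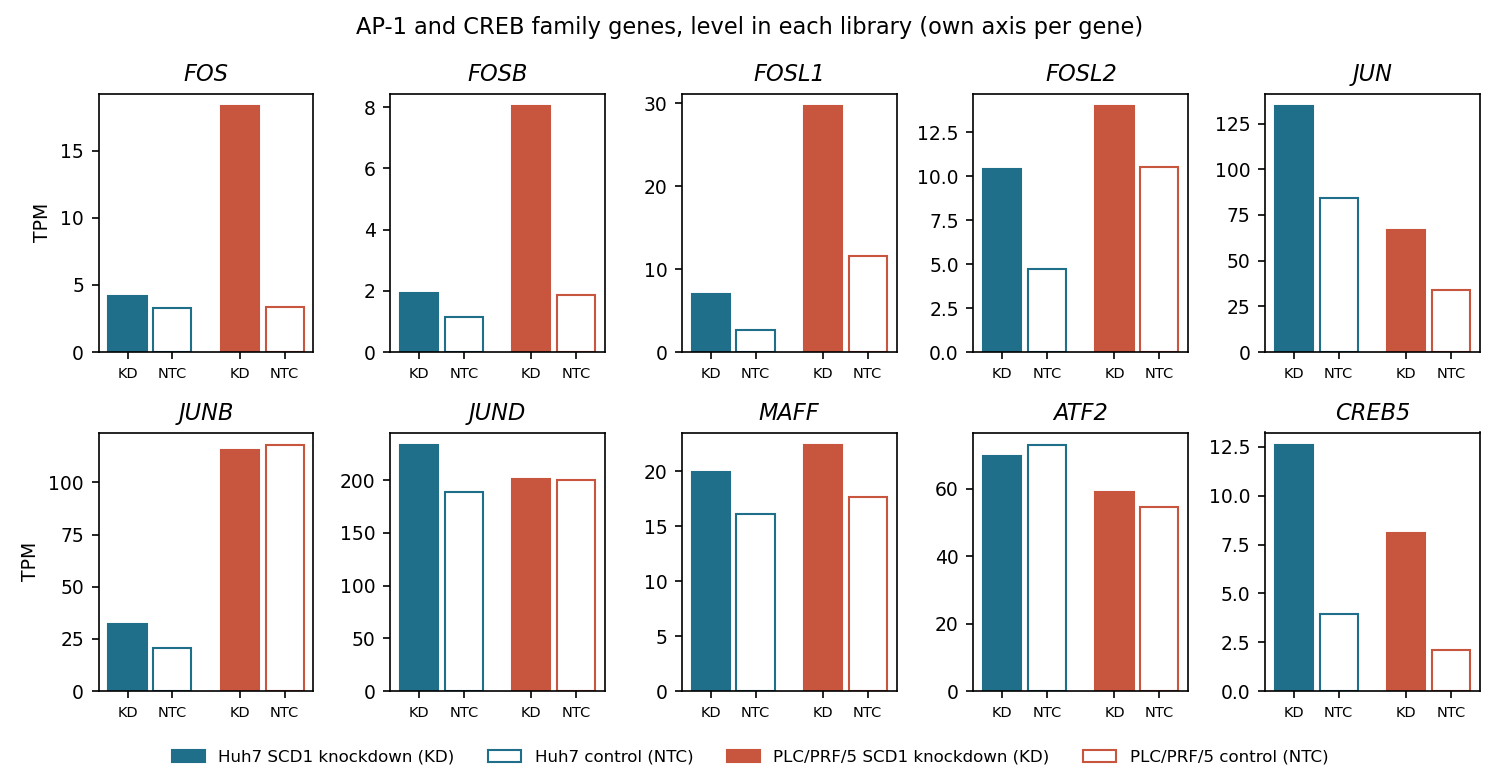
Level of each of the 10 genes in TPM (vertical axis, from 0, with its own range for each gene) in the knockdown (KD, filled) and control (NTC, open) library of Huh7 (blue) and PLC/PRF/5 (red); each bar is 1 library. FOS and FOSB stand out in the PLC/PRF/5 knockdown library, CREB5 and FOSL1 are higher in both knockdown libraries, and JUNB and JUND differ little in PLC/PRF/5.

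JUN was higher in both knockdown libraries, whereas JUNB and JUND were higher in that of Huh7 and near their control level in PLC/PRF/5. JUN, the main partner of FOS, was at 135 TPM in the knockdown and 84.2 TPM in the control of Huh7, and at 66.7 TPM in the knockdown and 33.9 TPM in the control of PLC/PRF/5. Its log2 fold changes were 0.67 and 0.96, and the Huh7 control was above the PLC/PRF/5 knockdown. JUNB, a weaker activator that can oppose JUN, was at 32.0 TPM in the knockdown and 20.9 TPM in the control of Huh7 (log2 fold change 0.59). Its PLC/PRF/5 levels were 115 TPM in the knockdown and 118 TPM in the control (-0.03).

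JUND, known for growth-restraining functions in fibroblasts, was the highest of the 10 genes in every library. It was at 234 TPM in the knockdown and 188 TPM in the control of Huh7, a log2 fold change of 0.31. In PLC/PRF/5 it was at 201 TPM in the knockdown and 200.1 TPM in the control, a log2 fold change of 0.01. That value became -0.11 with each library rescaled by its median ratio to the others, so JUND has no stable direction in PLC/PRF/5.

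Summed over the 4 genes, the FOS family stood at 23.5 TPM in the Huh7 knockdown against 11.8 TPM in the control, a ratio of 1.99. In PLC/PRF/5 it stood at 70.1 TPM in the knockdown against 27.4 TPM in the control, a ratio of 2.56. The JUN family sums were 400.3 TPM against 294 TPM in Huh7 (knockdown against control, ratio 1.36) and 383 TPM against 352 TPM in PLC/PRF/5 (1.09). JUN family transcripts thus outnumbered FOS family transcripts in every library, 17.0 to 1 in the knockdown and 24.8 to 1 in the control of Huh7, and 5.46 to 1 in the knockdown and 12.9 to 1 in the control of PLC/PRF/5.

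The make-up of the FOS pool also differed. FOS supplied 26.2% of the FOS family sum in the PLC/PRF/5 knockdown against 12.4% in the control, and FOSL2 20.0% against 38.4%, while FOSL1 stayed at 42.4% in both. In Huh7, FOS supplied 17.7% in the knockdown against 27.5% in the control, and FOSL2 44.2% against 39.8%. Of the JUN family sum, JUN supplied 33.6% in the knockdown and 28.7% in the control of Huh7, and 17.4% in the knockdown and 9.63% in the control of PLC/PRF/5. These are shares of RNA, and protein levels and dimers were not measured.

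**Figure D2:**
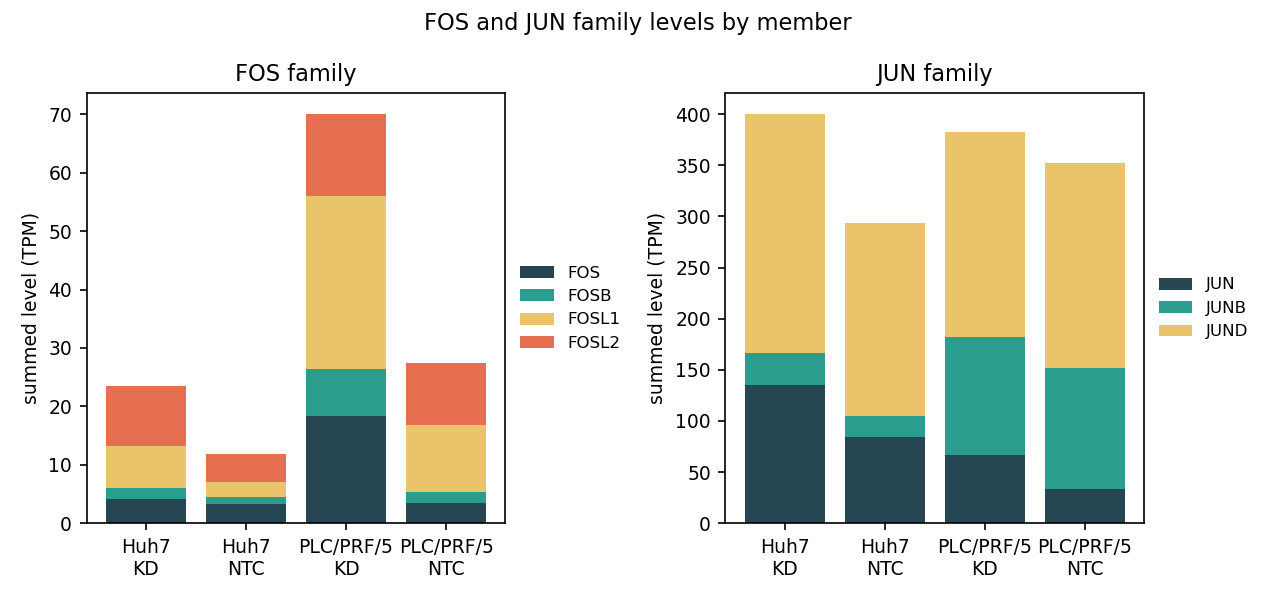
Summed TPM (vertical axis, from 0) of the FOS family (FOS, FOSB, FOSL1, FOSL2) and the JUN family (JUN, JUNB, JUND) in the knockdown (KD) and control (NTC) library of each line, stacked by member. The FOS family sum is higher in both knockdown libraries, at 23.5 TPM in Huh7 and 70.1 TPM in PLC/PRF/5, and JUND makes up over 50% of every JUN family sum.

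CREB5 had the largest mean difference of the 10 genes, and MAFF and ATF2 differed little. CREB5, whose zipper is closely related to that of ATF2 and which can pair with JUN, was at 12.6 TPM in the knockdown and 3.97 TPM in the control of Huh7. In PLC/PRF/5 it was at 8.09 TPM in the knockdown and 2.10 TPM in the control. Both knockdown libraries were above both controls, with log2 fold changes of 1.45 and 1.55, ranks of 134 and 51 in the 2 lines. With a pseudocount of 5 these became 0.97 and 0.88.

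MAFF is a small MAF protein, which lacks an activation domain and pairs with CNC factors such as NFE2L2 (NRF2). It was at 19.9 TPM in the knockdown and 16.1 TPM in the control of Huh7, and at 22.4 TPM in the knockdown and 17.6 TPM in the control of PLC/PRF/5. The log2 fold changes of 0.29 and 0.33 were alike, and 73.8% of genes in Huh7 and 76.2% in PLC/PRF/5 had lower ones. ATF2, which JNK and p38 activate by phosphorylation, was at 69.6 TPM in the knockdown and 73.0 TPM in the control of Huh7 (log2 fold change -0.07). Its PLC/PRF/5 levels were 58.9 TPM in the knockdown and 54.7 TPM in the control (0.11), which became -0.004 with median-ratio scaling, so its direction in PLC/PRF/5 depended on the scaling.

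Together, 9 of the 10 members were above 0 in Huh7, where 60.2% of 13485 genes were, and 9 of 10 in PLC/PRF/5, where 63.4% of 13057 genes were. Above 0 in both lines at once were 8 members, as were 46.5% of the 12064 genes considered in both. A difference of at least 2-fold upward was found for 2 members in Huh7 (FOSL1 and CREB5; 3.1% of all genes) and 4 in PLC/PRF/5 (FOS, FOSB, FOSL1 and CREB5; 1.72%). FOSL1 and CREB5 were so in both lines, as were 0.431% of all genes, but with a pseudocount of 5 neither was past 2-fold in both. No member was at least 2-fold lower, against 1.54% of genes in Huh7 and 1.12% in PLC/PRF/5. The choice of the list used this contrast, so these shares are set side by side only. The members' median was 0.51 in Huh7 and 0.67 in PLC/PRF/5, beside 0.08 and 0.10 for all genes considered.

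Median-ratio scaling moved the all-gene median to 0.00 in both lines, and left 7 members above 0 in both. With it, the share of higher among 2-fold genes was 45.5% in PLC/PRF/5, against 60.6% as deposited, and 59.0% in Huh7, against 66.9%.

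**Figure D3:**
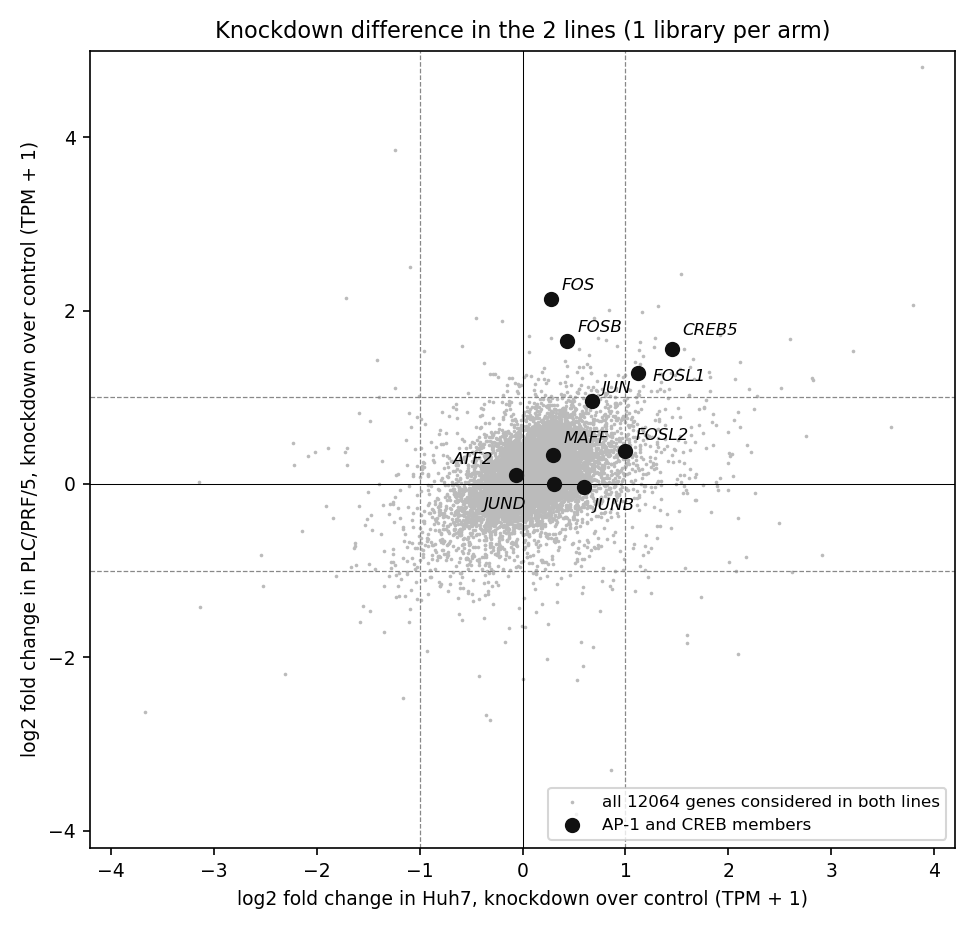
Log2 fold change of knockdown over control on log2(TPM + 1), in Huh7 (horizontal axis) and PLC/PRF/5 (vertical axis), for the 10 members (black, named) and the 12064 genes considered in both lines (grey); dashed lines mark 2-fold. FOSL1 and CREB5 lie past 2-fold in both lines, FOS and FOSB past it in PLC/PRF/5, and ATF2, JUNB and JUND lie near 0 in PLC/PRF/5.

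The level of the members also differed between the lines. The choice of the list did not use the line levels. It did use the knockdown differences, which enter the error of the test below, so those p-values are not free of that choice. Across both arms, JUN, CREB5 and ATF2 were higher in Huh7, and JUNB, FOSL1 and FOSL2 were higher in PLC/PRF/5. JUN had a Huh7 minus PLC/PRF/5 difference of 1.15 on the log2 scale (SE 0.11, adjusted p = 0.00164), CREB5 of 0.63 (SE 0.17, adjusted p = 0.0305) and ATF2 of 0.32 (SE 0.10, adjusted p = 0.0469). JUNB had a difference of -2.13 (SE 0.17, adjusted p = 0.00104), FOSL1 of -1.85 (SE 0.16, adjusted p = 0.00121) and FOSL2 of -0.71 (SE 0.21, adjusted p = 0.0398). Each of the 6 had the same sign in the knockdown and in the control libraries. These are limma tests with the arm as a covariate, 2 libraries per line and Benjamini-Hochberg adjustment over 13813 genes.

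FOSB did not pass (difference -1.02, SE 0.34, adjusted p = 0.0522), nor did FOS (-0.98, SE 0.46, adjusted p = 0.129), whose line difference was -1.91 in the knockdown and -0.05 in the control libraries. MAFF (-0.14, SE 0.13, adjusted p = 0.393) and JUND (0.07, SE 0.11, adjusted p = 0.622) also missed the threshold. In all, 3 members passed as higher and 3 as lower in Huh7, beside 28.3% and 31.5% of all genes, and 59.8% in either direction, so the members' share lies at the background. The residual of this fit is how unlike the knockdown difference was in the 2 lines, and genes chosen as higher in both may have a small one. The calls depend on the setting: without a filter on low values no gene passed and these 6 members had adjusted p = 0.0733 to 0.274, and without the arm term FOSL2 (0.193), JUN (0.0637), ATF2 (0.0813) and CREB5 (0.496) missed the threshold.

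**Figure D4:**
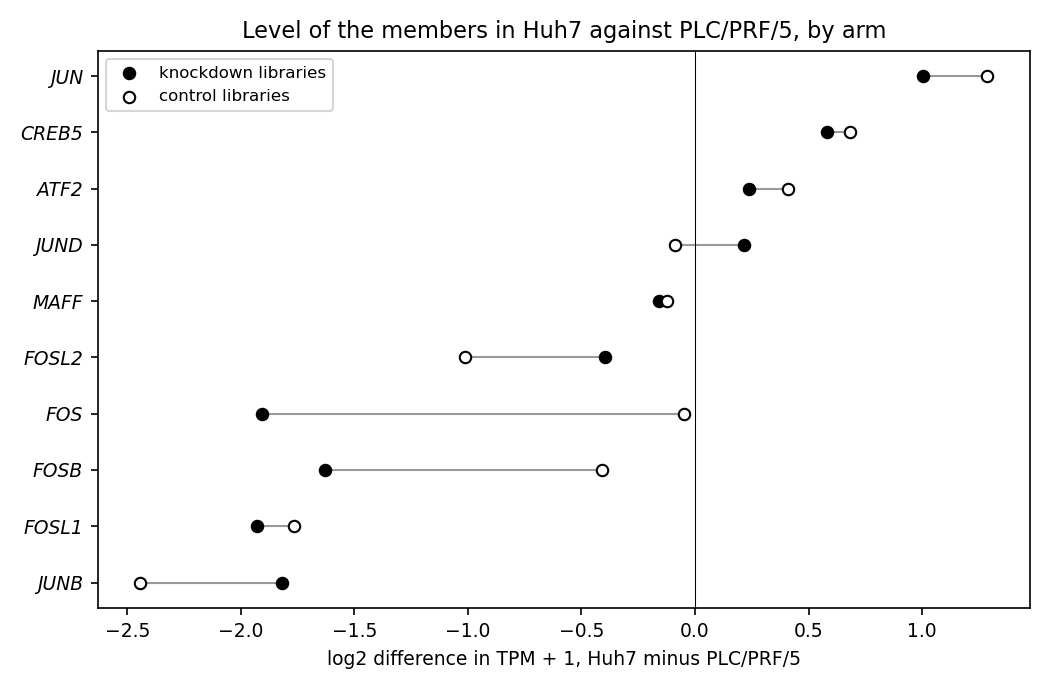
Difference in log2(TPM + 1), Huh7 minus PLC/PRF/5 (horizontal axis), for each of the 10 genes in the knockdown (filled) and control (open) libraries, 1 library per line and arm. JUN and CREB5 lie to the right and JUNB and FOSL1 to the left in both arms, whereas FOS lies at -1.91 in the knockdown and at -0.05 in the control libraries.

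Other genes of the pathway were taken as 9 lists, and the knockdown difference common to both lines was tested with limma, with the line as a block. No gene of these lists passed at an adjusted p of 0.05 over 13813 genes, where 0 genes passed as higher and 1 as lower (0.00724%). At an unadjusted p under 0.05, 12.7% of all genes were higher and 5.24% lower, 1759 and 724 genes. With median-ratio scaling these numbers became 1071 higher and 1273 lower, so the excess of higher genes depended on the scaling. The unadjusted counts of the lists below are for the values as deposited. All 9 lists were drawn up with earlier results of these data known, so their counts are a description beside the shares of all genes.

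Among 16 other basic leucine zipper partners, ATF3, MAFK, BATF3 and JDP2 led. Of the 15 in the fit, 5 were higher and 0 lower at an unadjusted p under 0.05. ATF3, a stress-induced factor that pairs with JUN, was at 23.4 TPM in the knockdown and 6.91 TPM in the control of Huh7, and at 37.2 TPM in the knockdown and 14.0 TPM in the control of PLC/PRF/5 (adjusted p = 0.129). It was the 1 partner past 2-fold in both lines. MAFK, a small MAF like MAFF, was at 45.8 TPM in the knockdown and 15.4 TPM in the control of Huh7, and at 179 TPM in the knockdown and 126 TPM in the control of PLC/PRF/5. BATF3 (log2 fold changes 0.54 and 0.69) and JDP2, a repressor that pairs with JUN (0.73 and 0.32), had smaller values. The list's median was 0.52 in Huh7 and 0.32 in PLC/PRF/5. BATF (1.35) and MAF (1.39), chosen after their values were seen, were past 2-fold in Huh7 and under 1 TPM in PLC/PRF/5.

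Genes that encode other CREB proteins and their coactivators were near the all-gene median, at 0.06 in Huh7 and 0.15 in PLC/PRF/5. CREB1 was at 15.4 TPM in the knockdown and 14.5 TPM in the control of Huh7, and at 12.6 TPM in the knockdown and 12.7 TPM in the control of PLC/PRF/5. It was chosen after its values were seen, as the founding gene of the family. The largest differences were those of CREBRF, a regulator of CREB3 (log2 fold changes 0.64 and 1.49), and CREBZF (0.25 and 0.65) on the higher side. CREB3L1 (-0.80 and -0.84) and CREB3L3, a liver factor activated by cleavage (-0.14 and -1.06), were on the lower side. Of 15 genes in the fit, 4 were higher and 1 lower at an unadjusted p under 0.05.

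The genes of the MAP kinase cascade upstream of AP-1 showed a median of 0.10 in Huh7 and of 0.02 in PLC/PRF/5. None of the 22 considered in Huh7 or the 23 in PLC/PRF/5 was past 2-fold. Of all genes, 3.1% were past it upward and 1.54% downward in Huh7, and 1.72% and 1.12% in PLC/PRF/5. A count of 0 in a list of this size lies near those shares. The largest values were for RPS6KA4 (MSK2), a kinase of CREB (-0.97 and -0.76), MAPK3 (ERK1; -0.55 and -0.48), MAPK12 (p38 gamma; -0.55 and -0.42) and MAPK7 (ERK5; 0.27 and 0.52). Of 24 in the fit, 1 was higher and 4 lower at an unadjusted p under 0.05. SRF and its cofactors, which control FOS transcription, had medians of 0.17 and 0.16. The cofactor gene MKL1 led with 0.39 and 0.56, followed by ELK4 (0.57 and 0.08), ELK3 (-0.49 and -0.07) and MKL2 (0.20 and 0.34), and of 6 genes 1 was higher and 0 lower by the unadjusted p. Genes for turnover of AP-1 proteins had medians of 0.29 and 0.33. They include the ubiquitin ligase genes FBXW7 (0.51 and 0.86), ITCH (0.25 and 0.34) and RFWD2 (COP1; 0.29 and 0.18) and the adaptor gene TRIB1 (0.40 and 0.66), with 3 of 7 higher and 0 lower.

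Other immediate early genes had a median of 0.26 in Huh7 and of 0.51 in PLC/PRF/5. Past 2-fold upward were 6 of 17 and 4 of 18 genes, beside 3.1% and 1.72% of all genes. This list too was drawn up with earlier results known, so these shares are set side by side only. CYR61, a matricellular protein gene, was at 184 TPM in the knockdown and 51.3 TPM in the control of Huh7, and at 87.3 TPM in the knockdown and 36.5 TPM in the control of PLC/PRF/5. KLF6 (1.28 and 1.58) and ATF3 were the others past 2-fold in both lines. DUSP1, a phosphatase of MAP kinases, was at 142 TPM in the knockdown and 41.3 TPM in the control of Huh7, and at 244 TPM in the knockdown and 132 TPM in the control of PLC/PRF/5. In all, 8 of 18 in the fit were higher and 1 lower at an unadjusted p under 0.05. The lower one was CTGF (log2 fold changes -0.48 and -0.80), named after its values were seen. EGR1, chosen after its values were seen, was, like FOS, highest in the PLC/PRF/5 knockdown library. Its levels were 17.0 TPM in the knockdown and 23.7 TPM in the control of Huh7, and 31.9 TPM in the knockdown and 7.73 TPM in the control of PLC/PRF/5. Heat shock genes, a sign of culture stress, had a median of 0.23 in Huh7 and of 0.02 in PLC/PRF/5. None of the 10 was past 2-fold, a count near the all-gene shares. Those were 3.1% upward and 1.54% downward in Huh7, and 1.72% and 1.12% in PLC/PRF/5. By the unadjusted p, 4 of the 10 heat shock genes were higher and 1 lower. BAG3 (0.54 and 0.57), HSPA1A (0.48 and 0.32) and HSPA1B (0.32 and 0.30) were on the higher side and HSPE1 (-0.42 and -0.65) on the lower. Their part in the AP-1 values was not tested.

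Textbook AP-1 target genes had a median of 0.66 in Huh7 and of 0.65 in PLC/PRF/5 over the 17 and 14 genes considered. The list was drawn up with earlier results of these data known. In each line, 6 of these genes were past 2-fold upward, beside 3.1% of all genes in Huh7 and 1.72% in PLC/PRF/5. Downward past 2-fold there was 1 in Huh7 and 0 in PLC/PRF/5, beside 1.54% and 1.12% of all genes. Those past it upward in both lines were CXCL8, a neutrophil chemokine gene (log2 fold changes 3.21 and 1.54), and the EGF receptor ligand genes EREG (3.79 and 2.07) and AREG. AREG was at 54.9 TPM in the knockdown and 6.89 TPM in the control of Huh7, and at 406 TPM in the knockdown and 176 TPM in the control of PLC/PRF/5. TGFB1 was on the lower side (-1.53 and -0.48). Matrix metalloproteinase genes, among the best known AP-1 targets in fibroblasts, were hardly expressed: MMP1, MMP3, MMP7, MMP9, MMP10 and MMP13 were under 1 TPM in every library, and MMP3 was listed at 0 in all. Of 17 target genes in the fit, 8 were higher and 1 lower at an unadjusted p under 0.05.

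Targets of cAMP and CREB had medians of opposite sign, -0.15 in Huh7 and 0.22 in PLC/PRF/5. Of 11 considered in both lines, 0 were above 0 in both, 2 were below 0 in both and 9 had opposite signs, beside 46.5%, 22.4% and 31% of all genes considered in both. PCK1, the gluconeogenic enzyme gene, was at 2.33 TPM in the knockdown and 0.13 TPM in the control of Huh7, and at 11.6 TPM in the knockdown and 12.6 TPM in the control of PLC/PRF/5. Among the genes considered in both lines, TAT (-0.21 and -0.74), CGA (-0.15 and 1.08) and PER2 (-0.13 and 0.95) had the next largest mean differences. CRH, a neuropeptide gene chosen after its values were seen, was under 1 TPM in both libraries of Huh7, and at 3.94 TPM in the knockdown and 35.5 TPM in the control of PLC/PRF/5 (log2 fold change -2.88). Of 15 in the fit, 0 were higher and 1 lower at an unadjusted p under 0.05.

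**Figure D5:**
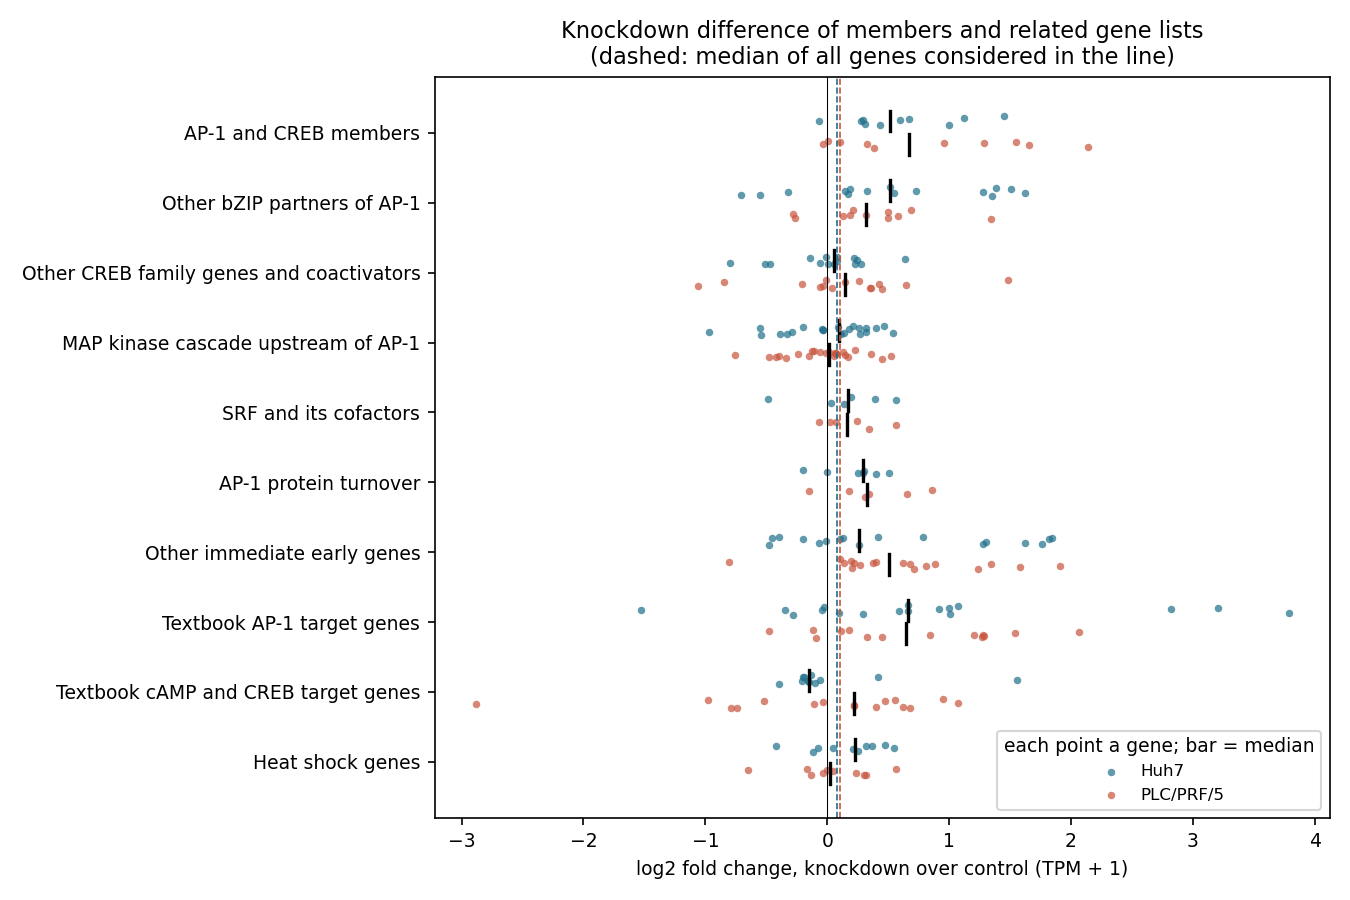
Log2 fold change of knockdown over control on log2(TPM + 1) (horizontal axis) for the 10 members and the 9 lists (rows); each point is a gene at 1 TPM or more in a library of that line, blue for Huh7 and red for PLC/PRF/5, with black bars at list medians and dashed lines at the medians of all genes. Members and AP-1 targets have medians of 0.51 to 0.67 in both lines. The other basic leucine zipper partners have 0.52 in Huh7 and 0.32 in PLC/PRF/5, and other immediate early genes 0.26 and 0.51. The medians of the MAP kinase list lie near the dashed lines, with single genes as low as -0.97.

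The genes whose profile over the 4 libraries was most like the mean profile of FOS, JUN, MAFF, ATF2 and CREB5 were KDM6B, NPIPB6, CDK6, VAMP2 and SMG1P1, out of 11842 genes at 5 TPM or more in a library. Likeness was the Euclidean distance between log2(TPM + 1) profiles centred on their mean, from 0.07 for KDM6B to 0.15 for SMG1P1. KDM6B, a histone H3K27 demethylase gene, was at 32.1 TPM in the knockdown and 20.7 TPM in the control of Huh7, and at 33.5 TPM in the knockdown and 15.7 TPM in the control of PLC/PRF/5. CDK6, a G1 cyclin-dependent kinase gene, was at 30.7 TPM in the knockdown and 21.9 TPM in the control of Huh7, and at 36.0 TPM in the knockdown and 15.7 TPM in the control of PLC/PRF/5. NPIPB6 and SMG1P1 belong to families of near-identical copies, and their values are uncertain.

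Several members lie on top of another gene on the opposite strand in the GENCODE 29 annotation, and whether the counting used strand is not given in the sources used here. JUNB overlaps HOOK2 and shares 12.8% of its 31-base words with other genes. HOOK2 was at 10.6 TPM in the knockdown and 7.95 TPM in the control of Huh7, and at 15.2 TPM in the knockdown and 12.2 TPM in the control of PLC/PRF/5. FOSB overlaps ERCC1, which was at 43.2 TPM in the knockdown and 41.4 TPM in the control of Huh7, and at 92.4 TPM in the knockdown and 81.2 TPM in the control of PLC/PRF/5, above FOSB in every library. MAFF overlaps PLA2G6, at 2.73 to 3.82 TPM over the libraries. FOSL1 shares 8.24% of its words with the pseudogene FOSL1P1, and the other members share under 3% with any other gene. FOS, FOSL1, JUN and JUND overlap no other annotated gene.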

How the data were processed

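Total RNA was sequenced with Illumina protocols, per the labels' protocols, and each group had 1 library. The authors deposited 1 table per library, with TPM to 2 decimals for each gene symbol. Per the submitters' processing notes, RSEM 1.2.21, cutadapt and hg19 were used. Aligner, annotation and strandedness: not given in the sources used here. The program RSEM divides reads between similar genes by likelihood, and TPM keeps no depth, so no counting interval was computed.

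Groups came from the sample titles. Log2 fold changes used a pseudocount of 1; genes at 1 TPM or more in at least 1 library of a line were considered, and a 2-fold difference is a size rule. Tests were two-sided in limma 3.58.1 (R 4.3.3) on log2(TPM + 1), with line and arm terms, a variance trend, Benjamini-Hochberg adjustment at 0.05 and 1 residual degree of freedom, over 13813 genes at 1 TPM or more in at least 2 libraries. The fit was tested on simulated data. With 1 library per group, p-values reflect how alike the 2 lines (or arms) differed and may hold technical spread.

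The members and lists were chosen with earlier results of these data known. One gene of the AP-1 target list is not reported here and was left out of its values. Named list genes were up to 4 per list with the largest absolute mean log2 fold change, among genes considered in both lines, plus any past 2-fold in the same direction in both. Alternatives were pseudocounts of 0.1 and 5, a minimum of 5 TPM or none, median-ratio scaling, and fits without the trend, line or arm term. Promoter sequences are from the RefSeq table (GRCh38.p14), another build than the authors', and shared sequence is from GENCODE 29; no coordinates of the authors' build are given. Python 3.11.15 and matplotlib 3.10.9 were used.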

Additional observations from a re-analysis of the deposited data

Results flagged for a closer look

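The following genes moved one way in the Huh7 pair and the other way in the PLC/PRF/5 pair, with 1 library per arm; the difference between the lines was not tested. Among the members these were JUNB, at 0.59 on the log2 scale in Huh7 and -0.033 in PLC/PRF/5, and ATF2, at -0.066 and 0.11. Both have 1 value within 0.1 of 0. EGR1 had -0.45 in Huh7 and 1.91 in PLC/PRF/5, the widest gap of the 6 genes. Among targets of cAMP and CREB, PCK1 had 1.56 and -0.10, PER2 -0.13 and 0.95, and CGA -0.15 and 1.08.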

How the results depend on the processing

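Knockdown and control were paired by cell line, which was the block of the across-line fit; the fit without it called 0 genes higher and 0 lower. Leaving out a library was not run, since it leaves no residual degree of freedom. Members above 0 in both lines numbered 8, and 7 to 8 under the alternatives. With a pseudocount of 0.1, genes past 2-fold numbered 695 higher and 370 lower in Huh7 and 480 and 248 in PLC/PRF/5; with 5 they numbered 155 and 92, and 68 and 55. The across-line fit called 1 gene higher with a pseudocount of 0.1, and 0 lower with a pseudocount of 5, without a filter and without the trend. The line difference called 0 genes higher and 0 lower without a filter. For members, FOSL2 missed the threshold with median-ratio scaling (adjusted p = 0.0535) and ATF2 without the trend (adjusted p = 0.0995), while FOSB passed with a pseudocount of 0.1 (adjusted p = 0.0405). List medians, as the mean of both lines over genes considered in both, moved by more than the spread between the lines as follows. With median-ratio scaling they became 0.24 for bZIP partners, 0.011 for CREB genes, -0.042 for MAP kinases, 0.070 for SRF and 0.22 for turnover, against 0.32, 0.10, 0.05, 0.16 and 0.31 as deposited. With a pseudocount of 0.1 the values were 0.35 for bZIP partners, 0.17 for SRF, 0.33 for turnover and 0.92 for AP-1 targets (0.75 as deposited with 1); with 5 they were 0.19, 0.14, 0.27 and 0.49. The causes were not tested. The depth behind values under 5 TPM, which FOS, FOSB, FOSL1, FOSL2 and CREB5 had in some libraries, is unknown.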
